A study of Mus musculus with 12 samples.

Results

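The Hox gene clusters were described through 38 member genes in 4 clusters, taken by name. The 38 were 10 genes of HoxA on chromosome 6, 10 of HoxB on chromosome 11, 9 of HoxC on chromosome 15 and 9 of HoxD on chromosome 2, out of 21938 protein-coding genes in the annotation. H3K27ac, a histone mark of active promoters and enhancers, and H3K27me3, the mark left by Polycomb repressive complexes, had been profiled by native ChIP-seq, in which the chromatin is not cross-linked. The cells came from the cortex of *Gad67-GFP* heterozygous mouse pups at postnatal day 2, of mixed strain with crosses to CD-1, with tissue pooled over litters for each sample. GFP, expressed from the *Gad67* (*Gad1*) locus, marked GABAergic cells, so that the GFP+ cells were immature cortical interneurons (CINs) and the GFP- cells (non-CINs) were a mixture of glutamatergic neurons, glia and other cells. All groups carried the same allele, and no other genotype or treatment was compared. Each mark was read in 2 replicates of each population, which gives 8 lists of broad peaks.

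Hox genes encode homeodomain transcription factors that set position along the body axis. In each cluster they lie in the order in which they act, from the anterior genes with low paralogue numbers to the posterior genes with high ones, and the forebrain forms in front of the region where they are used. Polycomb complexes are known to hold silent Hox clusters under long domains of H3K27me3, and acetylation of the same lysine excludes its methylation on a given histone tail. The comparison asked how the 2 marks lay over these genes in a cortical population of interneurons and in the other cells of the same cortex.

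The H3K27me3 lists held 36662 to 45081 peaks over 34.5 to 49.8 Mb, and the H3K27ac lists 46040 to 62505 peaks over 40.8 to 56.3 Mb. The read depth behind them was not used here, so a stretch without a peak is one where none was called. The populations could be told apart by H3K27ac: 7 of 8 CIN marker genes (*Gad1*, *Gad2*, *Dlx1*, *Dlx2*, *Dlx5*, *Dlx6* and *Slc32a1*) had more acetylated length in both CIN lists than in both non-CIN lists, and all 3 astrocyte markers had more in both non-CIN lists. Of 5 excitatory neuron markers 1 had more in the non-CIN lists, of 4 oligodendrocyte lineage markers 1 had more in each population, of 5 microglia markers 2 had more in the non-CIN lists and of 5 endothelial markers 1 had more in the CIN lists. Among all protein-coding genes, 12.1% had more in both CIN lists and 12% in both non-CIN lists. No H3K27ac peak in any list was found over 7 of these 30 markers, which were *Lhx6* (CIN), *Neurod2* and *Slc17a7* (excitatory neuron), *Aif1* and *Tmem119* (microglia) and *Cldn5* and *Kdr* (endothelial). Of these 7, *Lhx6* lay under H3K27me3 over 78.96% and 84.6% of its gene window (defined below) in CIN replicates 1 and 2. In non-CIN replicates 1 and 2 it was 79.8% and 83.2%. The means of the 4 lists were 87.3% at *Neurod2* and 60.7% at *Slc17a7*, and *Cldn5* and *Kdr* were partly covered. *Aif1* and *Tmem119* had no H3K27me3 peak in any list. H3K27me3 without H3K27ac was thus also called at a CIN marker in CINs.

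All 38 members lay under H3K27me3 in both populations, and none had an H3K27ac peak in either. Each gene was read over a window from 5 kb upstream of its transcription start site (TSS) to its annotated end. An H3K27me3 peak was present in all 4 lists over 38 of 38 windows, where 21.1% of all protein-coding genes had one. No H3K27ac peak was called in any of the 4 lists over 38 of 38 windows, where 33.1% of all genes had none. The windows were covered by H3K27me3 over 88.1% to 100% of their length, and 36 of 38 members were covered over at least 90% in all 4 lists, against 0.743% of all genes. Neighbouring windows overlap and share peaks, so the members are not independent of one another.

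The coverage was whole over most members. In all 4 lists, 25 members had 100% of the window under H3K27me3, which were 7 of the 10 in HoxA, 5 of the 10 in HoxB, 8 of the 9 in HoxC and 5 of the 9 in HoxD. These 25 made up 31.6% of the 79 protein-coding genes covered so in the whole annotation. Over all genes the median of the mean covered share was 0%, its 99th percentile was 81.9%, and 59.2% of genes had no H3K27me3 peak in any list. By fold enrichment over the input, ranked as a percentile within its own list, the strongest peak over each member stood between 99.36 and 99.99, and it was at 99 or above in all 4 lists for 38 of 38 members, against 1.25% of all genes.

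**Figure D1:**
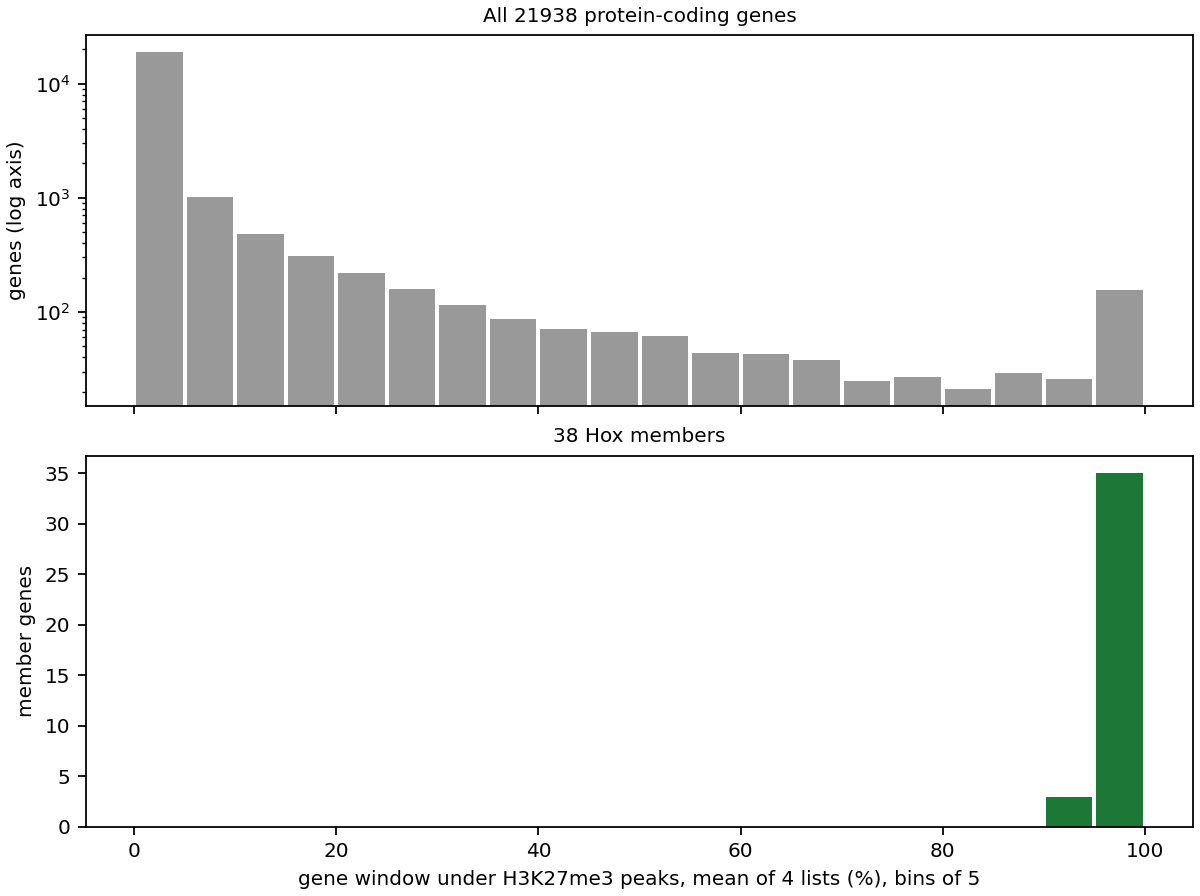
Number of genes (y axis, log scale in the upper panel) by the share of the gene window under H3K27me3 peaks, as the mean of the 4 lists (x axis, %, in bins of 5), for all 21938 protein-coding genes (upper) and for the 38 members (lower). Of the members, 35 have a mean of 95% or more and 3 lie below it, while most genes lie in the lowest bin.

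The anterior, central and posterior genes were all under the mark. Of the 11 members of paralogue groups 1 to 4, 5 were covered whole in all 4 lists and the lowest value in any list was 88.1%. Of the 11 members of groups 5 to 8, 8 were covered whole, with a lowest value of 92.1%, and of the 16 members of groups 9 to 13, 12 were covered whole, with a lowest value of 89.7%. The strongest peaks stood at percentiles of at least 99.36 in the anterior, 99.82 in the central and 99.74 in the posterior set.

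Between CINs and non-CINs no member had more of either mark in both lists of 1 population than in both of the other. The covered H3K27me3 length was higher in both non-CIN lists than in both CIN lists for 0 of 38 members, where 4.53% of all genes were, and higher in both CIN lists for 0 of 38, where 2.99% were. For H3K27ac, every member had 0 bp in all 4 lists, so that 0 of 38 were higher in non-CINs (12% of all genes) or in CINs (12.1%). Set against the list of the same replicate number only, *Hoxd8* was covered more in non-CINs in both, at 100% against 96.5% in replicates 1 and 92.6% against 92.1% in replicates 2. In replicates 2 that was 7700 against 7659 bp. The share of all genes called under this looser rule is not given here, so the call has no background. A window that is whole in every list leaves no room for a difference in covered length, and the height of the mark was not compared between lists. With 2 lists on each side the smallest *p* that a two-sided exact permutation test can give is 0.333, so no difference in a single value could pass 0.05.

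Taken over the spans from the first to the last member of each cluster (485.0 kb in all), H3K27me3 covered 93.27% and 93.31% in CIN replicates 1 and 2, while non-CIN replicates 1 and 2 stood at 93.01% and 92.53%. The means were 93.29% ± 0.03 (SD, n = 2) in CINs and 92.77% ± 0.34 (SD, n = 2) in non-CINs, a difference of -0.52 percentage points (two-sided exact permutation test, *p* = 0.333). Both non-CIN lists lay below both CIN lists, and HoxB was the only cluster of which this was true: its shares were 82.2% and 83.4% in CIN replicates 1 and 2 against 81.2% and 81.0% in their non-CIN counterparts (exact permutation test, *p* = 0.333, also the smallest possible). Within HoxB the populations were apart only in the stretch between *Hoxb13* and *Hoxb9*, which holds no member. It was covered over 58.3% and 61.8% in CIN replicates 1 and 2 and over 56.1% and 56.5% in their non-CIN counterparts. The other 3 clusters were covered over 98.2% to 100% in every list, and their populations overlapped. In HoxA the difference in means was 0.07 percentage points (exact *p* = 1), in HoxC it was 0 (exact *p* = 1) and in HoxD it was 0.42 (exact *p* = 0.667). HoxD was covered over 99.1% and 98.3% in CIN replicates 1 and 2, below the 99.5% and 98.7% of the same-numbered non-CIN lists. H3K27ac covered 0 bp of the 4 spans in each of its 4 lists.

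**Figure D2:**
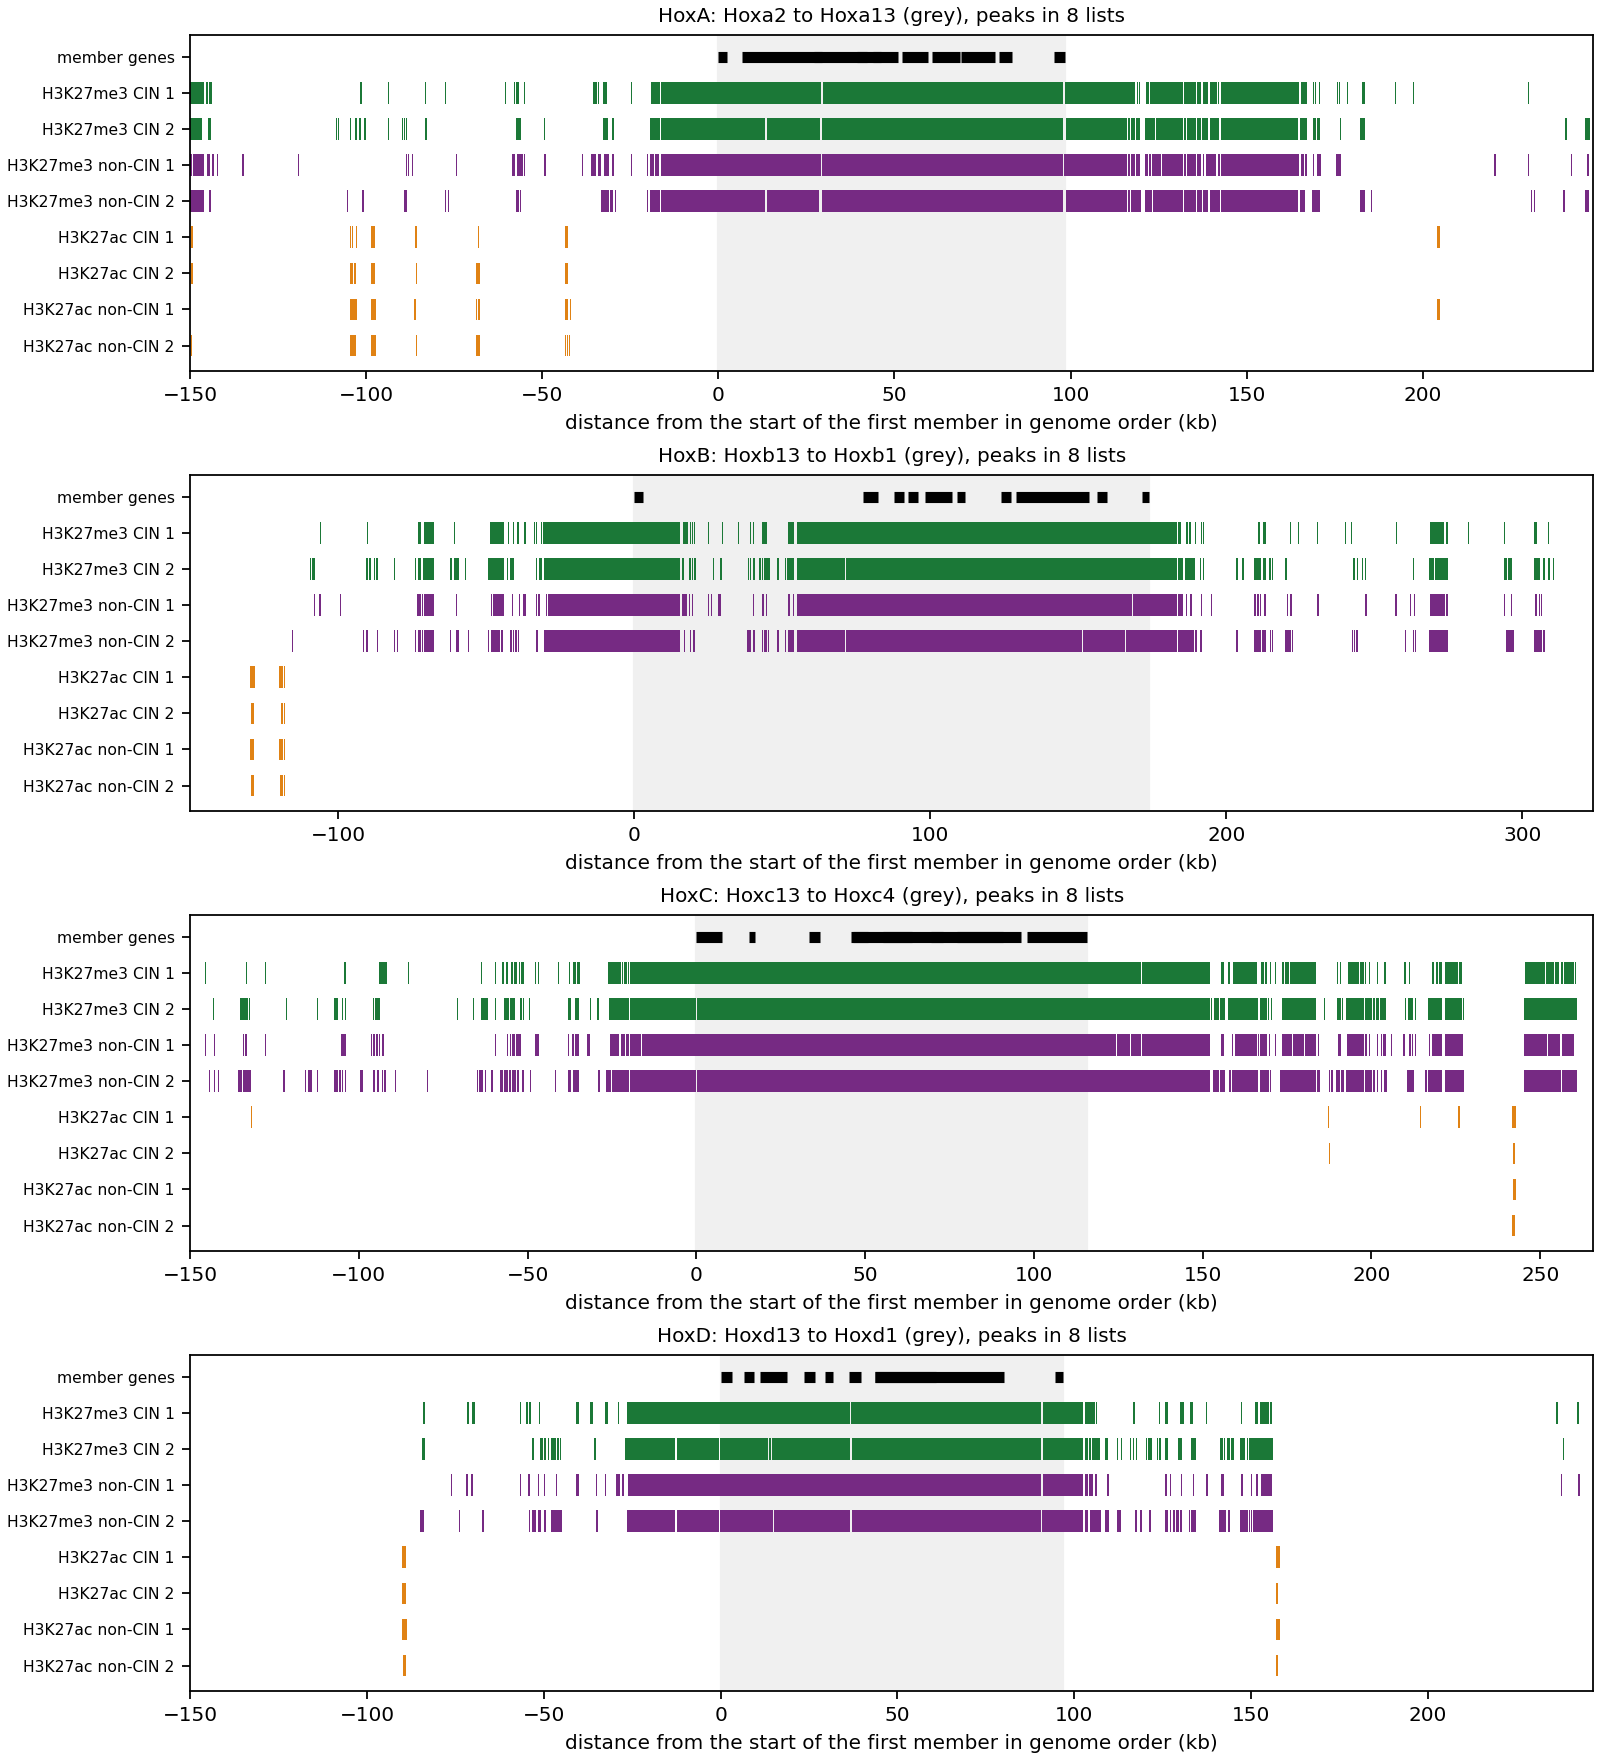
Peaks in the 8 lists over the 4 clusters and 150 kb on each side, by distance from the start of the first member in genome order (x axis, kb); rows are the member genes (black), H3K27me3 in CINs (green) and non-CINs (purple) and H3K27ac (orange), and the span of the members is shaded grey. H3K27me3 fills the spans of HoxA, HoxC and HoxD, HoxB holds a sparse stretch after *Hoxb13*, and no orange bar falls within a shaded span.

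The longest H3K27me3 peak of every list lay over HoxC. It measured 151.4, 151.8, 140.5 and 151.8 kb in CIN replicates 1 and 2 and non-CIN replicates 1 and 2. Of the 5 longest peaks of each list 4 lay over a Hox cluster, and the longest peak elsewhere measured 65.9, 60.6, 72.5 and 61.9 kb, at rank 4, 4, 4 and 3. It was longer than the longest HoxD peak in both CIN lists and non-CIN replicate 2, than that of HoxA in non-CIN replicate 1 and than that of HoxB in non-CIN replicate 2. The longest HoxA peak was of nearly the same length in each list, from 68.2 to 68.4 kb. In HoxB and HoxD the longest peak was longer in both replicates 1 than in both replicates 2. The HoxB peak measured 128.6 and 113.2 kb in replicates 1 of CINs and non-CINs and 61.2 kb in both replicates 2, and the HoxD peak measured 63.1 and 116.9 kb in replicates 1 and 53.5 kb in both replicates 2.

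**Figure D3:**
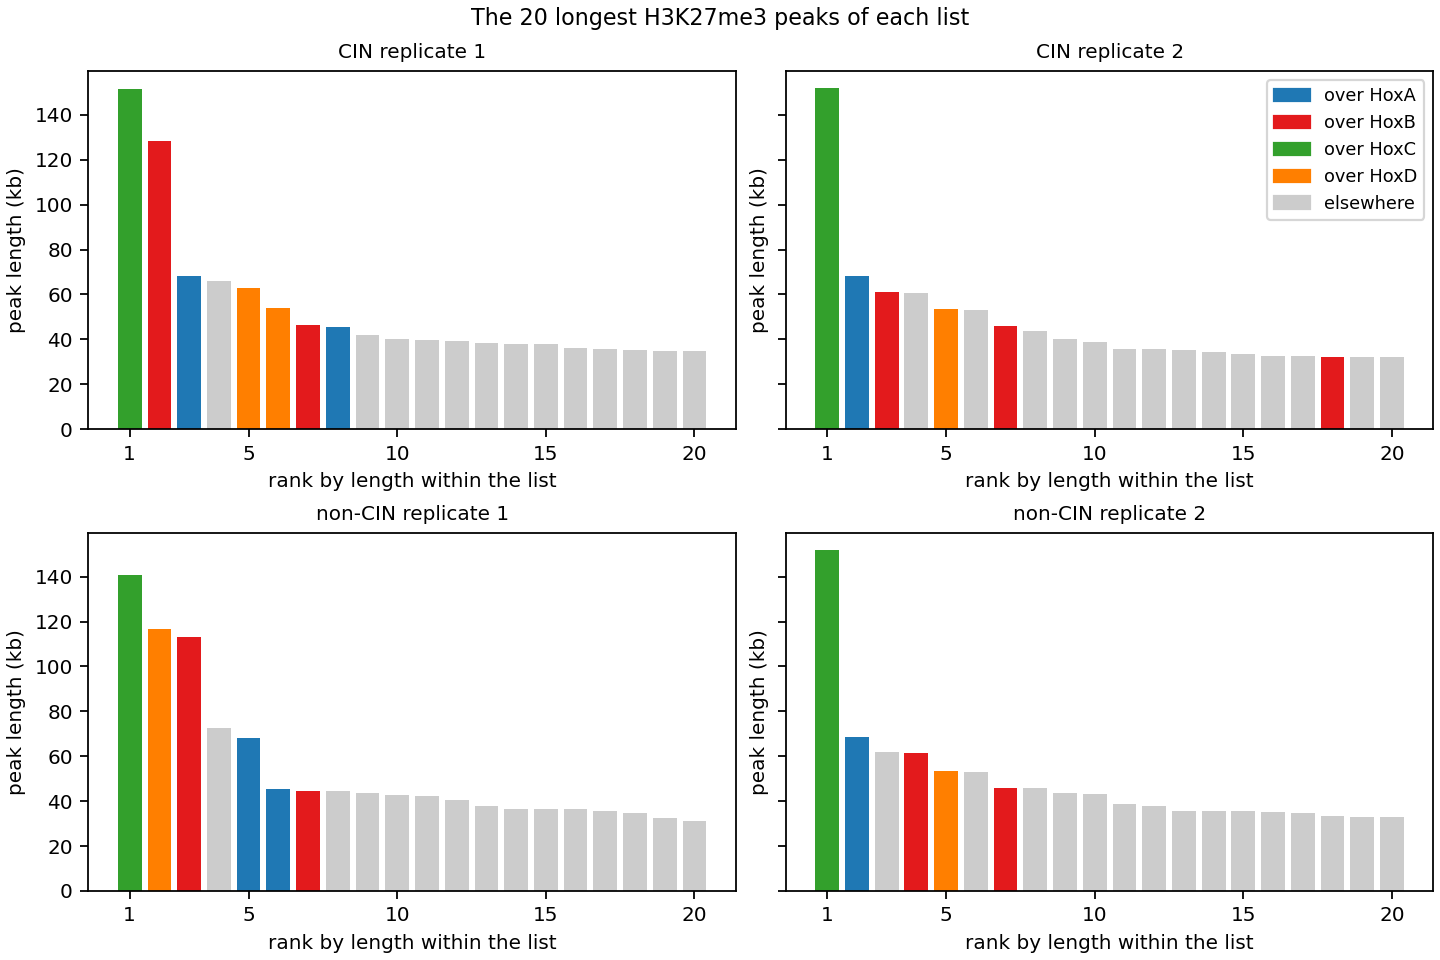
Length (y axis, kb) of the 20 longest H3K27me3 peaks of each list by rank (x axis), with peaks over a Hox cluster in colour and all others in grey. HoxC (green) holds rank 1 in the 4 lists, and of the 5 longest peaks 4 are over Hox clusters in each.

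The edges of the long peaks recurred at nearly the same base. Edges were taken from chains of peaks of at least 10 kb no more than 10 kb apart, a rule chosen after the data had been seen. At HoxB the chain over *Hoxb13* was separate from that over the other members, and each gave 1 of the outer edges. On the side of the anterior genes of HoxB, HoxC and HoxD the outer edges of the 4 lists fell within 17 bp (chr11:96377722-96377739, 9.5 kb beyond *Hoxb1*), 37 bp (chr15:103073136-103073173, 36.3 kb beyond *Hoxc4*) and 66 bp (chr2:74770890-74770956, 5.7 to 5.8 kb beyond *Hoxd1*). On the low side of HoxA they fell within 28 bp (chr6:52146166-52146194), 16.2 to 16.3 kb beyond *Hoxa2*. On the posterior side they were looser, within 2154 bp beyond *Hoxa13*, 1580 bp beyond *Hoxb13*, 3447 bp beyond *Hoxc13* and 708 bp beyond *Hoxd13*, and lay 17.6 to 19.8, 29.1 to 30.7, 16.2 to 19.7 and 26.3 to 26.99 kb from these genes. Without CIN replicate 1 the range beyond *Hoxa13* was 38 bp, without non-CIN replicate 1 those beyond *Hoxb13* and *Hoxc13* were 389 and 15 bp, and without CIN replicate 2 that beyond *Hoxd13* was 202 bp. The anterior ranges narrowed too. Without non-CIN replicate 2 those beyond *Hoxa2* and *Hoxd1* were 18 and 34 bp. That beyond *Hoxb1* was 6 bp without CIN replicate 1, and that beyond *Hoxc4* was 1 bp without CIN replicate 2. Positions are those of mm10, 1-based.

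Beyond these edges H3K27me3 went on in separate peaks, at a coverage that differed between the clusters. In the 20 kb outside the HoxD edges, peaks covered 9.8% to 37.1% and the strongest stood at percentiles of 65.0 to 85.9, where every long peak within stood at 99.18 or above. The 20 kb outside the low edge of HoxA and both edges of HoxB were covered over 16.3% to 41.2%, and those outside the low edge of HoxC over 36.5% to 51.4%. Outside the high edge of HoxC, beyond *Hoxc4*, the coverage was 53.2%, 74.9%, 56.1% and 75.7% in CIN replicates 1 and 2 and non-CIN replicates 1 and 2, with peaks at up to 98.7. Outside the high edge of HoxA it remained at 78.1% to 87.6%, with peaks at up to 99.88, on the way to *Evx1*, a homeobox gene beside *Hoxa13* that was itself covered over 100% in all 4 lists. *Evx2*, its counterpart beside *Hoxd13*, was covered over 100%, 95.2%, 100% and 96.2% in CIN replicates 1 and 2 and non-CIN replicates 1 and 2, and lies within the HoxD domain. When a domain was instead followed outward until a gap of over 10 kb, these outer peaks were taken in, and the mean length over the 4 lists was 214.0 kb at HoxA, 271.9 kb at HoxB, 286.0 kb at HoxC and 215.0 kb at HoxD, against 132.9, 213.5, 170.9 and 129.2 kb between the outer edges of the long peaks. At HoxB the length between the outer edges takes in the sparse stretch between *Hoxb13* and *Hoxb9*, which no long peak covers.

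HoxB was in 2 blocks. The block over *Hoxb13*, the most posterior gene of this cluster, ended between 96209668 and 96209916 on chromosome 11, 12.2 to 12.5 kb past the gene, and the block over the other 9 members began between 96249171 and 96249336, 22.1 to 22.3 kb before *Hoxb9*. Between them lay 39.3, 39.3, 39.5 and 39.6 kb in CIN replicates 1 and 2 and non-CIN replicates 1 and 2, which hold no member. In this stretch H3K27me3 covered 21.3% (CIN replicate 1), 28.9% (CIN replicate 2), 17.7% (non-CIN replicate 1) and 19.5% (non-CIN replicate 2), as 11 to 16 peaks of at most 2258 bp whose median percentile was 39.8 to 52.3. Both non-CIN lists lay below both CIN lists here. The sequence of the stretch had a GC content of 45.6% with 49.2% of its bases soft-masked as repeats, against 49.6% and 15.4% for the member windows joined where they lay at most 20 kb apart, and the part of repeats in the low coverage was not tested. From *Hoxb9* to *Hoxb1*, 99.2% to 100% was covered in every list. The populations overlapped there, at 100% and 99.5% in CIN replicates 1 and 2 and 99.8% and 99.2% in their non-CIN counterparts.

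Small RNA genes within the clusters lay under the same domains. *Mir10a* and *Mir10b* lie beside *Hoxb4* and *Hoxd4*, the *Mir196* genes beside the group 9 genes of HoxB and HoxA and in HoxC, and *Mir615* within *Hoxc5*; their mature strands are known to target Hox transcripts among others. All 6 genes were covered over 100% of the window in all 4 lists, with top percentiles of at least 99.69, and had no H3K27ac peak. The mature sequences (RefSeq, GRCm38.p6) are shown because they tie the clusters to each other, with the seed, bases 2 to 8, in capitals.
miR-10a-5p (HoxB, chr11:96317186-96317208): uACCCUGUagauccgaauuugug
miR-10b-5p (HoxD, chr2:74726074-74726096): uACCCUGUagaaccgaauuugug
miR-196a-5p (HoxB, chr11:96265187-96265208, and HoxC, chr15:102973365-102973386): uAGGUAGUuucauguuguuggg
miR-196b-5p (HoxA, chr6:52230129-52230150, minus strand): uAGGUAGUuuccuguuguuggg
miR-615-3p (HoxC, chr15:103014969-103014990): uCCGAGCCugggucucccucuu
The miR-10 pair shared the seed and 22 of 23 positions, the miR-196 pair shared the seed and 21 of 22 positions, and miR-615-3p had a seed of its own. A shared seed is a property of the sequence, and no miRNA was measured. The long noncoding RNA genes behaved in the same way inside the domains: *Hotair*, between *Hoxc12* and *Hoxc11*, was covered over 100% in all 4 lists, and *Hottip*, beside *Hoxa13*, over 95.2%, 91.7%, 96.1% and 91.4% in the order above. *Halr1*, which lies outside the HoxA edge, was covered over 10.9%, 10.6%, 22.2% and 8.1%.

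Of the 8 genes at the ends of the clusters, 3 were covered whole in all 4 lists. *Hoxa2*, a gene of hindbrain and neural crest patterning, *Hoxb13*, a posterior gene known from prostate and tail, and *Hoxc4*, the most anterior HoxC gene, had 100% of their windows of 7.4, 8.1 and 22.9 kb under H3K27me3 in all 4 lists. *Hoxb1*, a gene of the fourth hindbrain segment, was covered over 100% in both CIN lists and in non-CIN replicate 2 and over 97.2% in non-CIN replicate 1. *Hoxc13*, known for its role in hair and nails, was whole in both replicates 1 and covered over 97.2% in both replicates 2. *Hoxd13*, a gene of digit patterning, was likewise whole in both replicates 1 and covered over 95.7% and 95.3% in CIN and non-CIN replicate 2. For *Hoxc13* and *Hoxd13* the values of a replicate number lay together across the populations.

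The 3 members with the lowest mean coverage were *Hoxa4*, *Hoxa13* and *Hoxd1*. *Hoxa4*, an anterior gene of the neck vertebrae, was covered over 94.2% (CIN) and 95.7% (non-CIN) in replicates 1, and over 88.4% (CIN) and 88.1% (non-CIN) in replicates 2. *Hoxa13*, a gene of the digits and urogenital tract, was covered over 94.3% (CIN) and 95.3% (non-CIN) in replicates 1, and over 89.996% (CIN) and 89.7% (non-CIN) in replicates 2. *Hoxd1*, at the anterior end of HoxD, was covered over 91.8% (CIN) and 92.6% (non-CIN) in replicates 1, and over 94.6% of its window in both replicates 2. In *Hoxa4* and *Hoxa13* both replicates 2 lay below both replicates 1, and in *Hoxd1* both lay above. The populations overlapped in all 3, with differences in means of 0.59, 0.39 and 0.42 percentage points. Over the 38 members, 26 lay under 1 peak in each list, and the most was 4 peaks, over *Hoxd11* in CIN replicate 2. The 3 members with the highest mean could not be singled out, since 25 were tied at 100%.

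**Figure D4:**
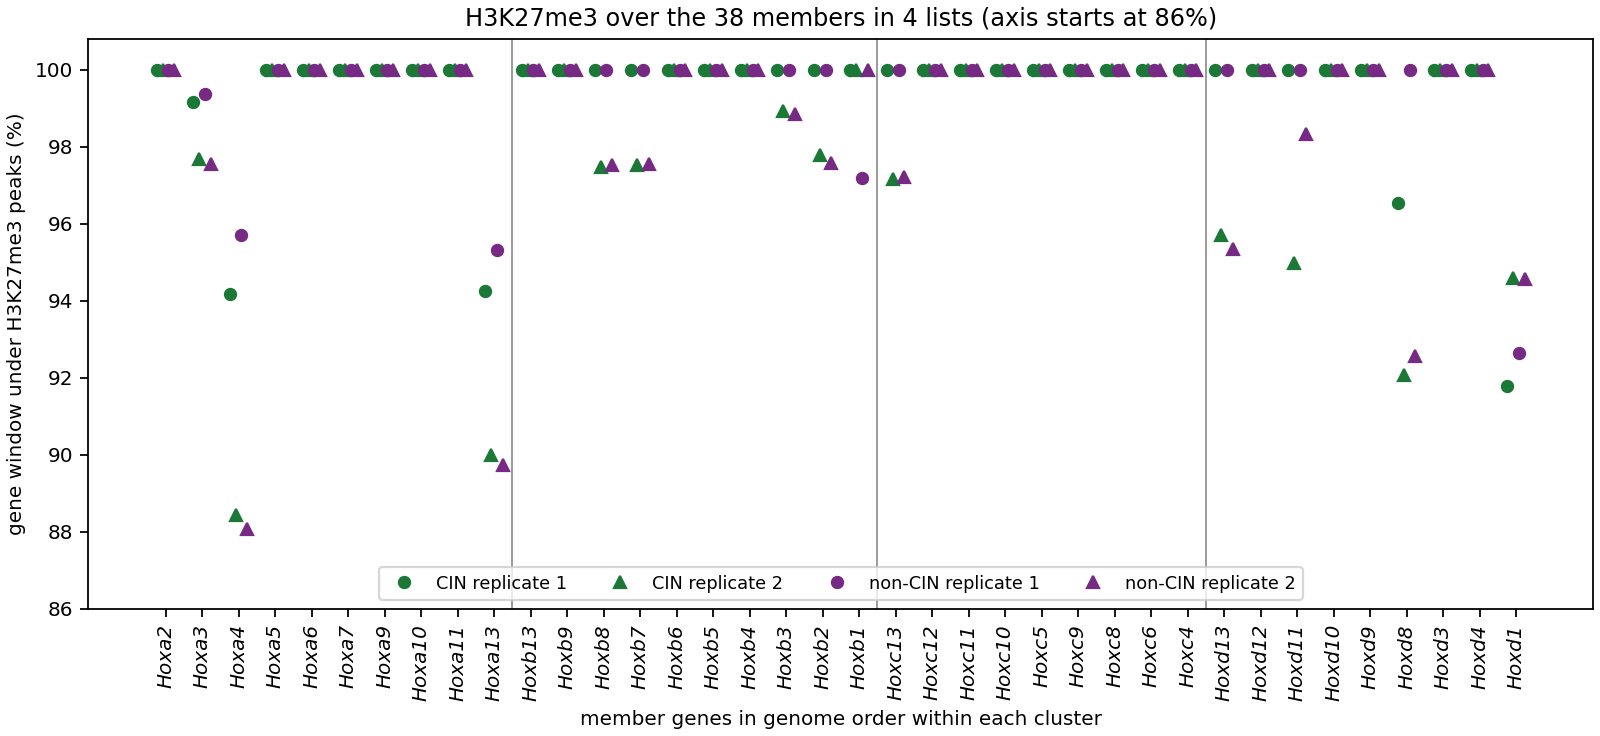
Share of each member's window under H3K27me3 peaks (y axis, %, starting at 86) for the 38 members in genome order (x axis), in CINs (green) and non-CINs (purple), replicate 1 (circles) and replicate 2 (triangles). Most members stand at 100% in the 4 lists, and where a member falls short the triangles of both populations usually lie together below the circles, down to 88.1% at *Hoxa4*.

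The uncovered bases lay in short gaps, most of which recurred between lists. Within the joined member windows there were 14 gap sites, of which 1, the farther of those upstream of *Hoxb1*, lay between windows, and each list held gaps at 4 (CIN replicate 1), 12 (CIN replicate 2), 4 (non-CIN replicate 1) or 11 (non-CIN replicate 2) of them, summing to 1759, 4881, 1428 and 4770 bp. Single gaps were 204 to 845 bp long. At 3 sites the gap was in all 4 lists, and at 10 it was in both replicates 2, of which 6 were in neither replicate 1, while 4 sites were in 1 list only. No site had a gap in both lists of 1 population and in none of the other. Of the members, 11 were covered less in both replicates 2 than in both replicates 1 and 1, *Hoxd1*, was covered more. Bases of the spans uncovered in both of a pair of lists made up 80.9% (replicates 1) and 80.8% (replicates 2) of those uncovered in either when the lists shared a replicate number, 68.2% (CINs) and 68.1% (non-CINs) when they shared a population, and 74.2% and 64.0% when they shared neither. What the replicate numbers shared is not given in the labels, and the H3K27me3 lists of replicate 2 held fewer but longer peaks, with medians of 553 and 528 bp against 418 and 417 bp.

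**Figure D5:**
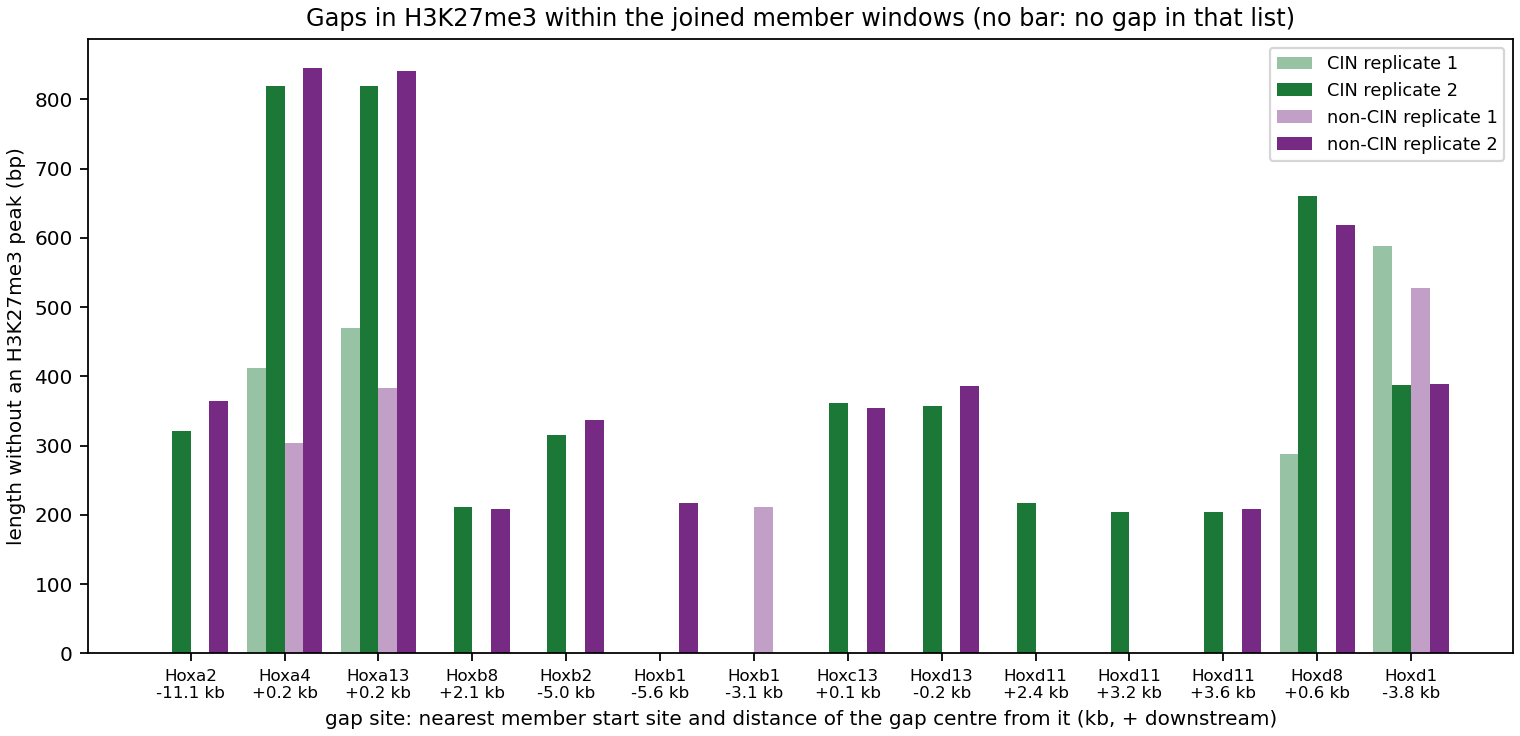
Length without an H3K27me3 peak (y axis, bp) at the 14 gap sites within the joined member windows (x axis, named by the nearest member TSS and the distance of the gap centre from it), in CINs (green) and non-CINs (purple), replicate 1 (pale) and replicate 2 (dark). The dark bars of both populations are of like height at 10 sites, and bars in all 4 lists stand at *Hoxa4*, *Hoxa13* and *Hoxd1*.

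Most gaps lay on GC-rich sequence at the genes themselves. At *Hoxa4* the gap measured 412 bp (CIN) and 304 bp (non-CIN) in replicates 1 and 820 bp (CIN) and 845 bp (non-CIN) in replicates 2, spanned the TSS and reached into coding sequence, and the 291 bp missing from all 4 lists (chr6:52191662-52191952) had a GC content of 71.1%. At *Hoxa13* it measured 470 and 384 bp in replicates 1 and 819 and 841 bp in replicates 2, in the same order, and its common 375 bp (chr6:52260312-52260686), in coding exon sequence, had a GC content of 83.7%. Of the 14 sites, 3 held a member TSS in at least 1 list (*Hoxa4* in all 4, *Hoxa13* and *Hoxc13* in both replicates 2 alone) and 5 had their centre within 1 kb of one. The gap at *Hoxd8* was absent from non-CIN replicate 1 and measured 288, 660 and 619 bp in CIN replicates 1 and 2 and non-CIN replicate 2, with a GC content of 70.8% over its common part. *Hoxd11* had 3 small gaps of 204 to 218 bp in CIN replicate 2 and 1 of 208 bp in non-CIN replicate 2, at 69.7% to 81.4% GC. *Hoxd8* and *Hoxd11* are named for these gaps, after their values had been seen.

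Across the joined member windows the gaps were commoner where GC content was high. In steps of 250 bp, 45 of 1742 steps had a GC content of 70% or more, and 3, 15, 2 and 13 of these 45 were mostly without a peak in CIN replicates 1 and 2 and non-CIN replicates 1 and 2. That is 6.67%, 33.3%, 4.44% and 28.9%, while among the 611 steps of 50% to 60% GC there were 1, 0, 1 and 0. Steps share their library, and the part of base composition in these gaps, and in their greater length in replicates 2, was not tested.

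Gaps also took in promoters. RefSeq promoters (300 bp, from 250 before to 50 after the start, GRCm38.p6) were at hand for 22 of the 38 members, as 24 sequences, and those of *Hoxa4* and *Hoxc13*, whose gaps held the TSS, were not among them. Of these, 22 were under H3K27me3 over their whole length in all 4 lists, and those of *Hoxa13* and *Hoxd13* were whole in both replicates 1 but covered over only 13 and 0 bp (*Hoxa13*) and 34 and 9 bp (*Hoxd13*) in CIN and non-CIN replicate 2. Their GC contents of 81.0% and 74.3% were the highest of the 24, whose median was 57.7%, against 52.7% for all 32851 promoters in the table. The 250 bases before the start of each are shown beside those of *Hoxd12*, a neighbour of *Hoxd13* that was covered whole, with the bases outside H3K27me3 peaks in both replicates 2 in capitals.
*Hoxa13* promoter (chr6:52260881-52261130, minus strand): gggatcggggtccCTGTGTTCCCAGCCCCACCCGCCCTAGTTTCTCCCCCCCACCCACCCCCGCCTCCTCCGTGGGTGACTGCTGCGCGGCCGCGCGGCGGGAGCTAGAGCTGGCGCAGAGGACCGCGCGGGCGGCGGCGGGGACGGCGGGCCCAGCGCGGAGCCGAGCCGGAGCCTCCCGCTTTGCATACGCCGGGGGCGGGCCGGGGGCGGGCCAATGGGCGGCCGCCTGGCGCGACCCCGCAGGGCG
*Hoxd13* promoter (chr2:74667975-74668224, plus strand): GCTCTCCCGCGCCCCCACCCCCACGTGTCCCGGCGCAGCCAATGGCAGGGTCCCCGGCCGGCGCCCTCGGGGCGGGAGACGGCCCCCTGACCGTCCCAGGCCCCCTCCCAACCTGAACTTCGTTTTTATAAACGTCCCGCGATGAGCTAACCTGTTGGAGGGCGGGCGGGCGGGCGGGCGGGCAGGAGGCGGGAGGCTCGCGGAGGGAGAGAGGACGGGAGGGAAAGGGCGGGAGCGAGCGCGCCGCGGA
*Hoxd12* promoter (chr2:74674763-74675012, plus strand): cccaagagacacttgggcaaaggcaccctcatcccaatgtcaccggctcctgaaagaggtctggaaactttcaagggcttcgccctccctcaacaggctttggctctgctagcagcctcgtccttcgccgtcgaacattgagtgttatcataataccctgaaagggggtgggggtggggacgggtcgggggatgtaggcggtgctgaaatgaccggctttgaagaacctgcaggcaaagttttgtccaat
All 250 bases of *Hoxd13* and 237 of *Hoxa13* were outside called H3K27me3 peaks in both replicates 2, and 0 of *Hoxd12*. The ratio of observed to expected CpG, which falls where CpG sites have been lost, was 0.88, 0.90 and 0.52 in these stretches.

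Gaps of another kind lay on repeats. The gap upstream of *Hoxd1* measured 589, 388, 528 and 389 bp in CIN replicates 1 and 2 and non-CIN replicates 1 and 2, and was the only one of the 14 that was in all 4 lists and longer in replicates 1. Its part common to all 4 lists had a GC content of 38.6% with 87.9% of bases soft-masked. A pair of gaps upstream of *Hoxb1*, of 218 bp in non-CIN replicate 2 and 212 bp in non-CIN replicate 1, were soft-masked over 100% and had GC contents of 40.4% and 40.1%. Reads from repeats can map to many places and were then removed by the filter on mapping quality, and the part of mapping in these gaps was not tested.

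The H3K27ac peak nearest to any of the 4 spans lay 41.9 kb away. Within 150 kb of the 4 spans there were 17 acetylated sites, of which 11 were in all 4 lists and 1, 71.5 kb beyond *Hoxc4*, was in both CIN lists alone. That site was 437 bp long, and its fold percentiles were only 57.5 and 9.66 in CIN replicates 1 and 2. At HoxD the nearest sites were the promoters of the flanking genes, *Lnpk* at 88.7 to 88.9 kb on the side of *Hoxd13* and *Mtx2* at 60.3 to 60.4 kb on the side of *Hoxd1*, each in all 4 lists. The scattered H3K27me3 peaks on this side ended 59.0 to 59.5 kb beyond *Hoxd1*, short of the acetylated site at *Mtx2*, and no H3K27me3 peak overlapped that site in any list. At HoxA the nearest site in all 4 lists lay 41.9 kb outside *Hoxa2*, and 5 more in all 4 lists followed at 67.7 to 149.2 kb. On the other side of HoxA, on the anterior side of HoxB and on the posterior side of HoxC, no site was in all 4 lists within 150 kb. Beyond *Hoxc4* the nearest site, at 49.4 kb, was a peak of 200 bp in non-CIN replicate 1 alone, at a place under H3K27me3 in all 4 lists, and the only site of HoxC in all 4 lists lay at 125.9 kb. The nearest at HoxB was at *Atp5g1*, 117.8 to 117.9 kb outside *Hoxb13*. No site within 150 kb was in both non-CIN lists alone.

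Other genes within and beside the clusters carried either mark. Of 22 flanking and embedded genes found in the annotation, 10 were covered by H3K27me3 over at least 90% in all 4 lists, and these were the 6 miRNA genes, *Hotair*, *Hottip*, *Evx1* and *Evx2*. Of the same 22, 8 had an H3K27ac peak in all 4 lists, among them *Cbx5* and *Hnrnpa1*, a heterochromatin protein gene and a splicing factor gene near HoxC, which had 5487 to 7165 bp and 2536 to 2928 bp acetylated and no H3K27me3 in any list. None of the 22 had more H3K27me3 in both lists of 1 population than in both of the other, and 1, *Skap2*, had more H3K27ac in both CIN lists, at 699 and 1158 bp against 644 and 232 bp.

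Other homeobox genes shared the domains in part. Of 15 genes related to Hox, all 15 had H3K27me3 in all 4 lists and 10 over at least 90%, with a median of 97.9% against 100% for the Hox members, and 11 had no H3K27ac in any list. *Pdx1* and *Cdx2*, regulators of pancreas and gut, were at 100% in all 4 lists, and *Meox2*, a muscle gene, had the lowest mean, at 11.1%. *Gsx2*, a regulator of the ventral forebrain, was covered over 91.3%, 93.7%, 96.1% and 97.0% and also had 1358, 607, 514 and 857 bp of H3K27ac in CIN replicates 1 and 2 and non-CIN replicates 1 and 2. It was the 1 gene of the 15 with more H3K27me3 in both non-CIN lists, its H3K27ac overlapped between the populations, and *Meox1*, with 614 and 233 bp against 0 bp in both CIN lists, was the 1 with more H3K27ac in non-CINs. Of 22 patterning regulators of other lineages, all had H3K27me3 in all 4 lists, 10 over at least 90%, with a median of 73.9%, and 18 had no H3K27ac in any list. Of these 22, 1, *Pax7*, had more H3K27me3 in both non-CIN lists, and 0 had more H3K27ac in either population. *Gsx2*, *Meox1* and *Pax7* are named for these differences, after their values had been seen.

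The Dlx genes, homeobox genes on the same chromosomes as Hox clusters, showed what a difference between the populations looks like in these lists. *Dlx1*, *Dlx2*, *Dlx5* and *Dlx6* had H3K27ac in both CIN lists and none in the non-CIN lists. *Dlx1* had 10234 and 8322 bp acetylated in CINs and 0 bp in both non-CIN lists, while its H3K27me3 covered 97.6% and 98.1% in CINs and 100% in both non-CIN lists. *Dlx4*, at 100% in all 4 lists, and *Dlx3*, at 58.5% to 67.9%, had no H3K27ac in any list, as did the Hox members. The lists average over the cells of a population, so a small share of cells with an acetylated Hox gene was not detectable here.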

How the data were processed

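Mouse cells of 2 populations were profiled for 2 marks in 2 replicates, and the 4 input samples served as controls when the authors called peaks. Single-end reads had been aligned to mm10 (BWA *mem* 0.7.15), reads of low mapping quality had been dropped (samtools), and the authors' broad peaks came from MACS2 (2.2.7 per the labels), run on each replicate with its input and without a model or local background. The deposited lists give a score (scaled −log10 *q*), a fold enrichment (ratio over input), −log10 *p* and −log10 *q*, as the authors' peak caller computed them. None is a count, and depth is unknown. Fold enrichment was used as a percentile within its own list.

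Gene windows began 5 kb before the TSS and closed at the gene end (GENCODE vM21 basic annotation, protein-coding genes on assembled chromosomes as background). Peaks of the deposited lists were used unjoined. A gene was called higher in a population when both its lists exceeded both of the other. Values of the spans were compared by two-sided exact permutation tests. Biological replicates were 2 a group. Covered lengths and peak counts were tested on simulated data, where 0 of 21938 windows differed from bedtools 2.31.1. Python 3.11.15 with NumPy 2.4.6, pysam 0.24.0 and matplotlib 3.10.9 was used. Values in every list are given for the end genes of each cluster, the members with the lowest and highest mean H3K27me3 coverage, members with H3K27ac in both lists of a population and members whose populations did not overlap (none in either case). For other gene lists at most a few genes are named. Members and gene lists were chosen with earlier results of these data known. 1 flanking gene was not found in the annotation, and 1 further Hox gene and the sequence of 1 gap are not reported here. Alternatives were other windows, RefSeq gene spans (added later), joined, stricter or fewer peaks, wider spans, single replicates left out and a replicate block.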

Additional observations from a re-analysis of the deposited data

How the results depend on the processing

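The counts of 38 members with H3K27me3 in all 4 lists and 38 with no H3K27ac in any list, and both counts of 0 for H3K27ac, were unchanged with −log10 *q* of at least 4, the 30000 strongest peaks of each list, peaks 500 bp or less apart joined, shorter windows, RefSeq gene spans, at least 500 bp counted as covered (presence counts) and each replicate left out. The share of the spans under H3K27me3 remained lower in non-CINs, by -0.29 to -0.80 percentage points, and without single replicates by -0.28 to -0.76. In the main setting this difference lay in the stretch of HoxB between *Hoxb13* and *Hoxb9*, which holds no member. The 0 members with H3K27me3 higher in non-CINs became 0 to 5 (5 without CIN replicate 1, 4 without non-CIN replicate 2 and 1 without CIN replicate 2), and the 0 higher in CINs became 0 to 6 (6 without non-CIN replicate 1 and 1 without either replicate 1 of CINs or replicate 2 of non-CINs), where 1 list then stands for a population; both remained 0 under the other settings above. The labels do not say what a replicate number shares, and deviations of same-numbered lists from their group means correlated at 0.76 for H3K27me3 and 0.37 for H3K27ac over 21938 genes, in 2 pairs. With the replicate block, 1 member, *Hoxd8*, was higher in non-CINs and 0 in CINs, and the share differed by the same -0.52 points (exact sign flips, *p* = 0.5, the smallest possible). For the member counts with the block or with a replicate left out, no share of all genes is given, so they have no background. Zone lengths depended on the gap that ends them: 199.99, 234.0, 227.4 and 156.3 kb for HoxA to HoxD at 5 kb, and 256.2, 400.6, 357.6 and 238.5 kb at 20 kb. Summed over the lists, 8 gaps within joined member windows were at least 500 bp long, 31 at least 200 bp and 0 at least 1000 bp. Unknown depth limits what the absence of a peak shows.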
